A study of Homo sapiens with 12 samples.

Results

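The non-additive response is the share of an expression change with 2 compounds that the changes with each compound alone, added together, do not give. It was measured for every gene as the interaction, the log2 level with both compounds minus that with TH10785 minus that with PNKP1i plus that with DMSO. A value of 1 means that the level with both compounds was 2-fold above the level expected if the single log2 changes had simply added, and a value of 0 means that they added. All expressed genes were taken, with no choice by outcome. Of the 58735 genes in the raw count table, 34799 had at least 1 count and 17290 passed the filter on low counts and were tested.

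RNA was sequenced from U2OS, a human osteosarcoma line, in 4 groups of 3 libraries, and all 12 libraries enter the interaction. The cells were given the solvent DMSO alone, TH10785 at 10 µM, PNKP1i at 10 µM, or TH10785 and PNKP1i together at 10 µM each, always for 24 h and in the same serum-containing medium. The labels name no genetic change in any group. TH10785 is known as an activator of OGG1. PNKP1i is given by its name only, with no structure in the labels. The labels do not say that the 3 libraries of a group came from separate cultures, so every p-value measures only the spread between these libraries, which may be technical.

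OGG1 is the DNA glycosylase that finds oxidised guanine and cuts it out of DNA, the first step of base excision repair. In the later steps the strand is cut, a polymerase fills the gap and a ligase seals it. The question of the design is whether cells given both compounds respond as the sum of the single responses.

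The libraries held 16225339 to 21546369 counts. The first principal component (50.4% of the variance) set the 3 libraries with both compounds, at 47.7 to 88.6, apart from the other 9, which were below 0. The third TH10785 library stood away from its partners, at -54.5 on that component against -2.5 and -10.1, and the counts below are therefore also given without it. Of 14 osteosarcoma and mesenchymal markers VIM, SPARC, COL1A1, FN1 and CD44 were high, while COL1A2, NT5E and TWIST1 were at or near 0, at most 0.538 CPM in any library (CPM, the read count over the scaled library total in units of 1e+06 reads). Summed over the 14 markers the level was 4940 to 5990 CPM with DMSO, 4990 to 5730 with TH10785, 5380 to 5440 with PNKP1i and 2880 to 3630 with both compounds, a difference whose part in the results was not tested. SPARC and COL1A1 were the largest members of the sum, at medians of 1770 and 1400 CPM. Of the 11 tested markers 5 were lower in all 3 libraries with both compounds than in the other 9, and 1 was higher. Over those 11 the median log2 change with both against DMSO was -0.25. Markers of other cell types (12 genes) summed to 9.92 to 16.4 CPM in all libraries, with CD3E and ADIPOQ at 0. In bulk libraries, fewer cells of a kind and less RNA per cell cannot be told apart.

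With both compounds many genes stood away from the sum of the single changes. Many genes of cholesterol and fatty acid synthesis, high with TH10785 alone, stood near their DMSO level when PNKP1i was added. Many histone, actin, respiratory chain and mitochondrially encoded genes stood below the sum of the single changes. Many genes of ribosome assembly and single genes such as LCN2, TXNIP and PTX3 stood above it. In edgeR's quasi-likelihood test the interaction passed a Benjamini-Hochberg adjusted p under 0.05 in 5289 of the 17290 genes (30.6%), positive in 2855 (16.5%) and negative in 2434 (14.1%). Against DMSO, 97 genes (0.561%) passed with TH10785, 34 (0.197%) with PNKP1i and 7093 (41%) with both. These 3 comparisons and the interaction share the DMSO libraries, and each comparison also shares its treated libraries with the interaction.

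Few called genes passed the test for a single compound, though 50 of the 97 genes that passed for TH10785 had a negative interaction. In all, 3 of the 2855 positive genes passed the test for TH10785 alone and 1 for PNKP1i alone, against 50 and 9 of the 2434 negative genes. Over all tested genes 0.561% and 0.197% passed. The interaction subtracts the levels with each compound alone, so a rise with a single compound lowers it. The counts are thus a description. Over the positive genes the median log2 difference from DMSO was -0.18 with TH10785, -0.27 with PNKP1i and 0.71 with both, where the sum of the single differences had a median of -0.46. Over the negative genes these medians were 0.13, 0.12 and -0.52, with a sum of 0.26. The sum of the single differences was within 0.5 of 0 in 53.3% of the positive and 65.8% of the negative genes, against 63.1% of all tested genes. The 3 libraries with both compounds lay above all other 9 in 2152 of the positive genes (75.4%) and below them in 1637 of the negative genes (67.3%). Over all tested genes these shares were 19.9% and 17.3%. The genes were called from these same libraries, so the shares and medians of the called genes are a description. The median interaction was 1.15 over the positive and -0.79 over the negative genes. At least 2-fold was reached by 1830 positive and 694 negative genes and at least 4-fold by 183 and 94. Additivity of CPM instead of log2 levels left the sign of every called gene for which it could be computed, 2821 positive and 2433 negative. Without the third TH10785 library the interaction was called in 4482 genes, 2427 positive and 2055 negative. Without the third DMSO, the first PNKP1i or the third PNKP1i library it was called in 3501, 3519 and 3492. The positive count was 1877, 1844 and 1910 in those fits and 1877 without the third library with both compounds, and the negative count without the third PNKP1i library was 1582. Within the group given both compounds the second library was the middle one or the least extreme in most called genes, being the highest in 105 of the positive and the lowest in 146 of the negative ones. Of the called genes 2828 were called in each of the 12 fits that left out 1 library.

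The interaction followed the base composition of the transcripts. Positive genes had a median GC content of 40.9% and a median length of 4824 bases, negative genes 57.2% and 2747 bases. Among 2369 genes with under 40% GC, 1182 were positive and 16 negative, with a median of 0.92 (0.68 without the third TH10785 library). Among 2604 genes with 60% GC or more, 25 were positive and 779 negative, with a median of -0.44 (-0.32). Library by library the AT-rich class stood 0.46 to 0.80 above the DMSO mean with both compounds, 0.21, 0.10 and -0.63 with TH10785 and -0.27 to -0.07 with PNKP1i. The 3 libraries with both compounds were thus high in the same class in which the third TH10785 library was low. With offsets per library that remove smooth trends with GC content and length, called here the GC offsets, 1313 genes were positive (7.59%) and 1952 negative (11.3%), so the share of positive calls went from 54% to 40.2%. The offsets were fitted to the levels of these same libraries, so any response to the compounds that follows GC content or length is removed too. Of the called genes 1034 positive (36.2%) and 1217 negative (50%) kept their call. The part of sequencing or RNA quality in this trend was not tested, and the counts for each group of genes below are given with and without the offsets. They stand beside 16.5% positive and 14.1% negative of all tested genes without offsets, and 7.59% and 11.3% with them. Without the third TH10785 library 2427 genes were positive and 2055 negative of 17804 tested.

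**Figure D1:**
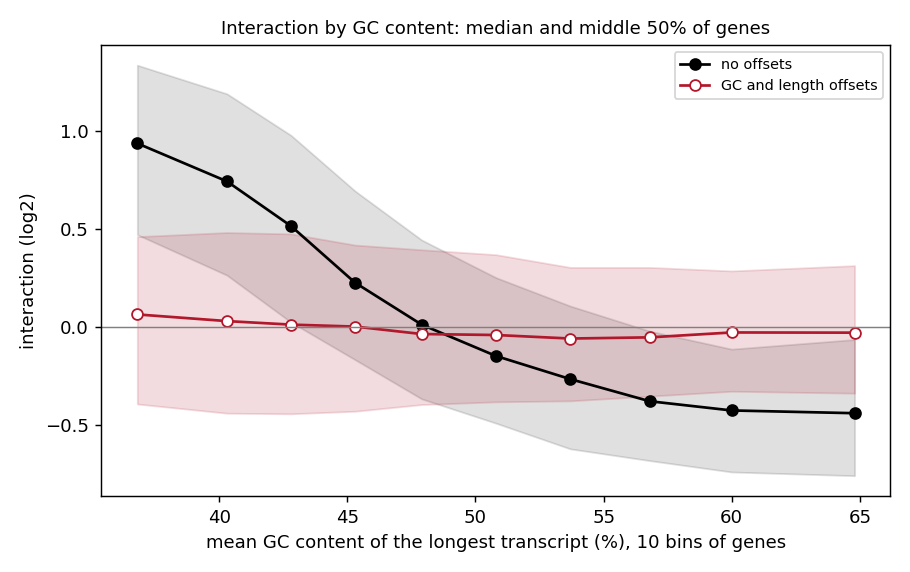
Interaction (log2, vertical axis) against the mean GC content of the longest transcript (percent, horizontal axis) in 10 bins of the tested genes, with lines for medians and bands for the middle 50% of genes, black without and red with the GC offsets. Without offsets the median goes from 0.94 in the most AT-rich bin to -0.44 in the most GC-rich one. With offsets it stays close to 0, as the offsets were fitted to remove this trend.

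The 12 genes ranked furthest above the sum of the single changes had varied roles. The ranking took called genes whose call held with the GC offsets and whose log2 CPM averaged 1 or more over the 12 libraries. PUS7L, MXD1, MIR222HG and TMEM154 reached that level only through the libraries with both compounds. The ranking used the interaction itself, so the levels of these genes are a description. LCN2, a secreted iron-siderophore binding protein of innate immunity, measured 2.51, 2.20 and 2.62 CPM with DMSO, 1.41, 1.35 and 1.55 with TH10785, 3.21, 2.80 and 3.70 with PNKP1i alone, and 32.4, 11.2 and 13.3 with both. Every library with both compounds was above every other library, and the first was far above its partners. The interaction was 3.31 (SE 0.49, adjusted p = 0.00239). TXNIP, which binds thioredoxin and curbs glucose uptake, measured 4.19, 5.01 and 3.21 CPM with DMSO, 2.64, 1.97 and 2.50 with TH10785, 6.09, 11 and 5.23 with PNKP1i alone, and 55.5, 24.8 and 23.0 with both. Again the groups did not overlap, and the interaction was 3.02 (SE 0.49, adjusted p = 0.0035).

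PTX3, a secreted pattern recognition molecule, was at 1.93 to 4.09 CPM in the 9 other libraries and at 32.9, 15.3 and 16.2 with both compounds (interaction 2.54, SE 0.43, adjusted p = 0.00399). LAMP3, a lysosomal membrane protein, was at 3.31 to 6.26 CPM in the 9 and at 28.3, 13.3 and 14.9 with both (2.48, SE 0.37, adjusted p = 0.00245). ITGA2, the collagen-binding integrin alpha subunit, was at 3.61 to 12.5 CPM in the 9 and at 70.8, 22.9 and 39.2 with both (2.61, SE 0.53, adjusted p = 0.00561). For all of them the sum of the single log2 changes was between -0.60 and 0.51, and the change with both was between 1.88 and 3.05. MXD1, a MAX partner that opposes MYC at DNA, reached 17.3, 5.33 and 5.65 CPM against 1.13 to 2.27 elsewhere (2.79). TMEM154 reached 16.4, 6.06 and 7.96 CPM against 0.807 to 1.90 (2.69), and the host RNA MIR222HG, which carries a microRNA pair, 8.57, 4.26 and 7.55 against 0.943 to 1.72 (2.73). The sources used here do not say that strand was counted, so reads of overlapping genes on opposite strands may be mixed in such loci.

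In 4 further genes of the 12, low single-compound levels made up part of the interaction. PUS7L, a pseudouridine synthase relative, was at 2.21, 2.50 and 3.80 CPM with DMSO, 2.21, 1.35 and 0.388 with TH10785, 1.64, 1.67 and 2.22 with PNKP1i alone, and 7.5, 3.83 and 7.83 with both. Its sum of single changes was -1.75, its change with both 1.16 and its interaction 2.92, or 1.84 with the GC offsets. ARHGAP18, a GTPase activating protein (2.61), ARAP2, another of that kind (2.52), and WDR35, a subunit of the ciliary transport machinery (2.51), had sums of -1.16, -1.11 and -1.13. The third TH10785 library was the lowest of its group in 8 of the 12 genes, these 4 among them. In 11 of the 12 the first library with both compounds was the highest of its group. Over all 2855 called positive genes it was the highest in 1338, and the third library in 1387.

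**Figure D2:**
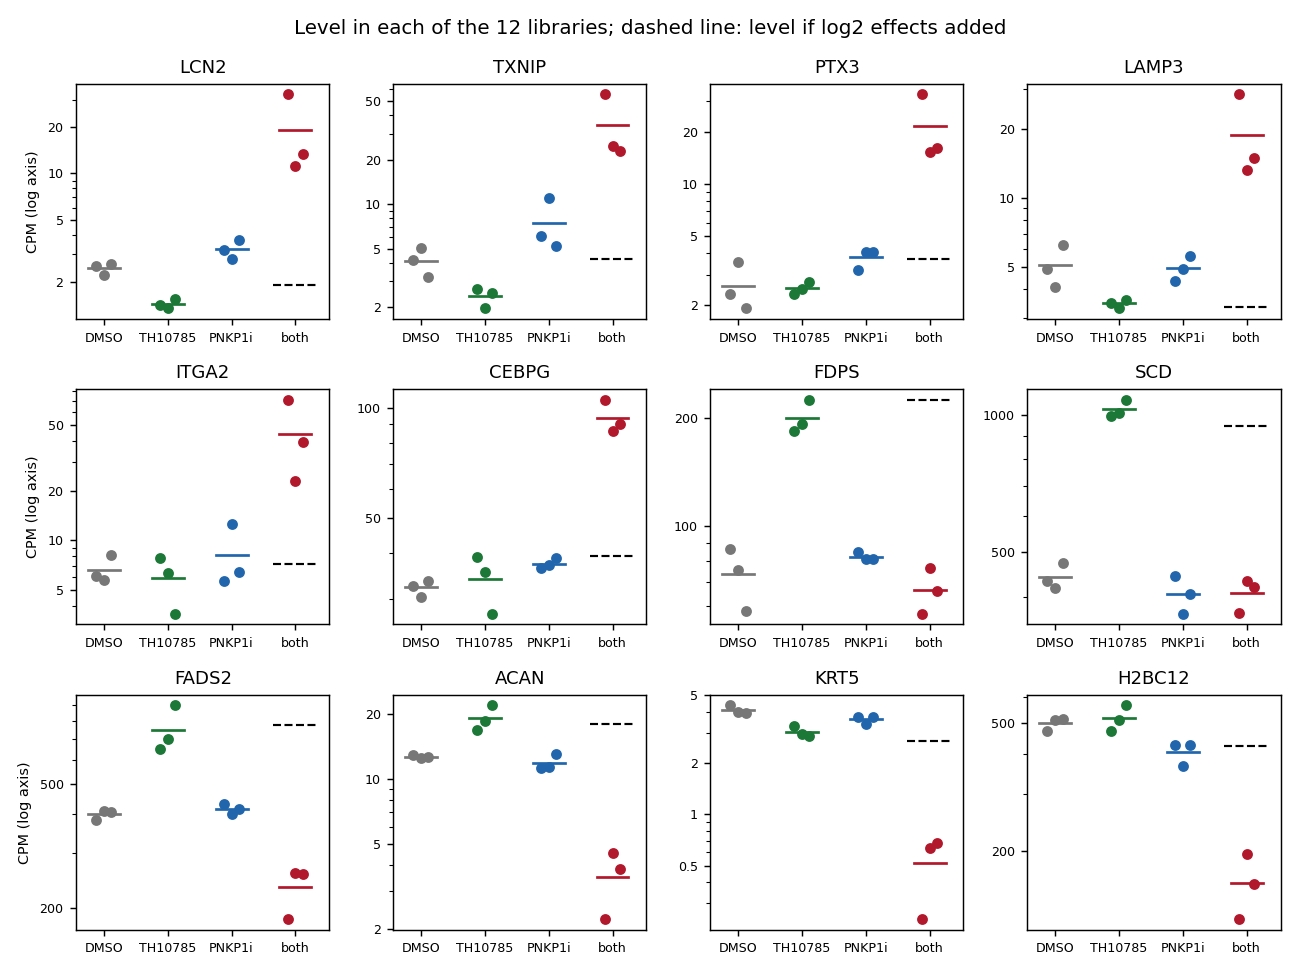
Levels (CPM, log axis) of 12 genes in each of the 12 libraries, by group on the horizontal axis. Points are libraries, coloured lines group means, and the dashed line in the last group is the level expected if the log2 changes had added. LCN2, TXNIP, PTX3, LAMP3, ITGA2 and CEBPG lie above the dashed line in all 3 libraries with both compounds, and FDPS, SCD, FADS2, ACAN, KRT5 and H2BC12 lie below it.

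The 12 genes ranked furthest below the sum, by the same rule, included a pair of keratins and a matrix proteoglycan. KRT14, a basal keratin, measured 10.5, 7.21 and 6.32 CPM with DMSO, 7.78, 5.95 and 9.65 with TH10785, 5.13, 16.2 and 9.09 with PNKP1i alone, and 0.532, 1.45 and 1.49 with both (interaction -3.08, SE 0.54, adjusted p = 0.00452). Its partner KRT5 was at 2.88 to 4.37 CPM in the 9 other libraries and at 0.242, 0.630 and 0.678 with both (-2.36, SE 0.38, adjusted p = 0.0035). Reads of keratins can be shared between near-identical copies, and the same holds for ALPP, a placental type alkaline phosphatase, and ANXA8L1, an annexin. ACAN, the cartilage proteoglycan aggrecan, measured 12.9, 12.5 and 12.7 CPM with DMSO, 16.9, 18.7 and 22 with TH10785, 11.3, 11.4 and 13.1 with PNKP1i alone, and 2.23, 4.51 and 3.80 with both. It had the smallest p of the 12 (-2.36, SE 0.29, adjusted p = 0.000644). The libraries with both compounds lay below all others and those with TH10785 above them, while DMSO and PNKP1i overlapped.

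ALPP was at 13.5 to 44.3 CPM in the 9 other libraries and at 1.16, 5.72 and 4.75 with both compounds (-2.84), and ANXA8L1 at 5.47 to 14.3 and at 0.436, 3.10 and 2.62 (-2.32). CXCL14, a chemokine, was at 31.4 to 66.2 CPM and at 0.823, 8.58 and 6.97 (-2.53), and lost its call without the third TH10785 library (-2.42) or with no filter on low counts. CLIC3, a chloride channel family protein, was at 6.15 to 17.1 CPM and at 0.194, 2.28 and 1.72 (-2.46). TGM1, the transglutaminase that crosslinks the skin's outer layer, was at 17.8 to 47.3 CPM and at 3.73, 14.5 and 10.7 (-2.24). LGI3 (-2.26), the non-coding LINC02474 (-2.30) and PEG13 (-2.30), an imprinted RNA inside an intron of another gene, completed this set. H2AC20, a histone gene with near-identical copies, differed in kind. It stood at 2.26 to 4.85 CPM with DMSO, 7.76 to 11 with TH10785, 4.59 to 7.39 with PNKP1i and 2.32 to 5.57 with both, so that 2 higher single groups, neither past the test (adjusted p = 0.068 and 0.39), met a level with both near that of DMSO (interaction -2.21, adjusted p = 0.0062). In all 12 the first library with both compounds was the lowest of its group, as it was in 1734 of all 2434 called negative genes.

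Many lipid synthesis genes were high with TH10785 alone and near DMSO when PNKP1i was added. Of 24 tested genes of cholesterol synthesis and uptake 14 had a negative interaction and 0 a positive one, with a median of -1.0 against 0.00 over all tested genes. Without the third TH10785 library 16 were negative and with the GC offsets 18 (median -1.16). The list stood at a median of 1.28, 1.23 and 1.29 above the DMSO mean in the TH10785 libraries, at 0.09, -0.05 and 0.01 in those with PNKP1i alone, and at 0.07, 0.28 and 0.16 in those with both. The pathway is run by SREBP factors, which are held back by sterols in the endoplasmic reticulum. FDPS, which makes farnesyl diphosphate, measured 86.5, 75.7 and 58.2 CPM with DMSO, 184, 192 and 224 with TH10785, 85.0, 80.9 and 81.3 with PNKP1i alone, and 57.2, 76.7 and 66.1 with both. The TH10785 libraries were above all others, and those with both compounds overlapped DMSO (interaction -1.75, SE 0.20, adjusted p = 0.000531).

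FDFT1, the squalene synthase, measured 212, 214 and 173 CPM with DMSO, 573, 602 and 734 with TH10785, 221, 200 and 225 with PNKP1i alone, and 199, 252 and 212 with both (-1.63, SE 0.19, adjusted p = 0.000531). MVD, which decarboxylates mevalonate diphosphate, had an interaction of -1.74 (SE 0.21, adjusted p = 0.000633) and LSS, the lanosterol synthase, of -1.64 (SE 0.20, adjusted p = 0.000655). LSS went further than the others, to 96.2, 138 and 139 CPM with both against 178, 193 and 182 with DMSO. Negative interactions were also called for DHCR7 (-1.69), the last step of synthesis, the SREBP retention protein INSIG1 (-1.18) and SREBF2 (-1.0). The loss was not shared by every member. CYP51A1 (0.05, adjusted p = 0.896) and SC5D (0.51, adjusted p = 0.214) did not pass the test, and changed by 0.92 and 0.98 with both compounds against 1.08 and 0.72 with TH10785 alone.

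Promoters are shown for 3 genes of this list, FDPS and MVD because their interactions were among the lowest p-values and MSMO1 for its sterol element. The windows are the 250 bases before the RefSeq start (GRCh38.p14), written 5′ to 3′ on the gene's strand. Capitals mark the CCAAT box, as CCAAT or its reverse complement ATTGG, and the sterol element consensus TCACNCCA searched on both strands. The end of TCACNCCA is also the start of CCAAT, so that 2 matches can overlap, but in these windows they lie apart. MSMO1, a sterol methyl oxidase, had no call without the offsets. Its interaction was -0.40 (adjusted p = 0.14) and, with the GC offsets, -1.13 (adjusted p = 0.000503).
FDPS, chr1:155308616-155308865, plus strand: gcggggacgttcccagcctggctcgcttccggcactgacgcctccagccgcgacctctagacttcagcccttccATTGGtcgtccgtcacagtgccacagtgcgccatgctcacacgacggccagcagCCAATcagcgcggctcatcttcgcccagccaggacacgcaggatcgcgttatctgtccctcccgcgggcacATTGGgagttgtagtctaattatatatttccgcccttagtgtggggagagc
MVD, chr16:88663092-88663341, minus strand: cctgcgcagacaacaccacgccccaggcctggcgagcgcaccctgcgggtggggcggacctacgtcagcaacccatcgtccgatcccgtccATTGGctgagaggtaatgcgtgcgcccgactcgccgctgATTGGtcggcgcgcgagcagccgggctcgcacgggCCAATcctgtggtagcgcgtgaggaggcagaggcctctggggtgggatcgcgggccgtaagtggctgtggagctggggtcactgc
MSMO1, chr4:165327419-165327668, plus strand: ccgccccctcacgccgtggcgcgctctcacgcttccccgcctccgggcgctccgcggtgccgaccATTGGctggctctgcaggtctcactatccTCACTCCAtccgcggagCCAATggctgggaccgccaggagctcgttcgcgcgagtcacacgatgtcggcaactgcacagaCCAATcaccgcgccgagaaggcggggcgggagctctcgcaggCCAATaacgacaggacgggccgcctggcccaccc
A CCAAT box stood in 15 of the 18 windows found for the list (83.3%), against 34.2% of 12063 windows of tested genes and 32% of all 35116. The sterol element stood in 3 of the 18 (16.7%), against 2.84% and 3.2%. A match describes the letters and is no binding site.

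Fatty acid genes followed with smaller values. Of 22 tested genes of fatty acid synthesis and desaturation 11 were negative and 3 positive (median -0.51), 12 and 0 with the GC offsets and 11 and 3 without the third TH10785 library. SCD, the stearoyl-CoA desaturase, measured 433, 417 and 473 CPM with DMSO, 994, 1010 and 1080 with TH10785, 444, 367 and 405 with PNKP1i alone, and 369, 432 and 420 with both (interaction -1.22, SE 0.17, adjusted p = 0.0012). FADS2, a desaturase of polyunsaturated fatty acids, rose with TH10785 from 383, 411 and 406 to 648, 698 and 898 CPM and stood at 184, 260 and 257 with both, below every other library (-1.73, SE 0.21, adjusted p = 0.000633). SREBF1, the lipogenic SREBP gene, was at 98.7 to 108 CPM with both and at 165 to 374 in all others (-1.36, adjusted p = 0.000837). ACSS2, which activates acetate, returned to 30.5 to 33.7 CPM from 56.8 to 80.9 with TH10785 (-1.27, adjusted p = 0.00239). The 3 positive genes were ACSL3 (0.75), ELOVL6 (0.83) and GPAM (1.28), none of which kept its call with the GC offsets.

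Targets of LXR, the oxysterol receptor that opens cholesterol export, were negative in 6 of 10 tested genes and positive in 0 (median -0.67), in 3 of 10 with the GC offsets and 4 of 10 without the third TH10785 library. ABCG1, a sterol exporter, measured 16.8, 18.8 and 18.1 CPM with DMSO, 12.4, 12.1 and 13 with TH10785, 5.24, 9.31 and 6.32 with PNKP1i alone, and 1.74, 1.36 and 1.45 with both, each group lying below the one named before it. Its interaction was -1.68 on the log2 scale (SE 0.29, adjusted p = 0.00448), but on the CPM scale the observed and the additive level differed by -0.05 (log2), so its departure from additivity depends on the scale. LPCAT3 (-1.04), which remodels phospholipids, was also negative. MYLIP, a ubiquitin ligase (-0.83), was called too, but lost its call in 10 of 24 alternative settings. Among these were the fits without any 1 of the DMSO libraries, the first or the second PNKP1i library, the first TH10785 library, and the first or the second library with both compounds, with interactions of -0.87 to -0.62.

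**Figure D3:**
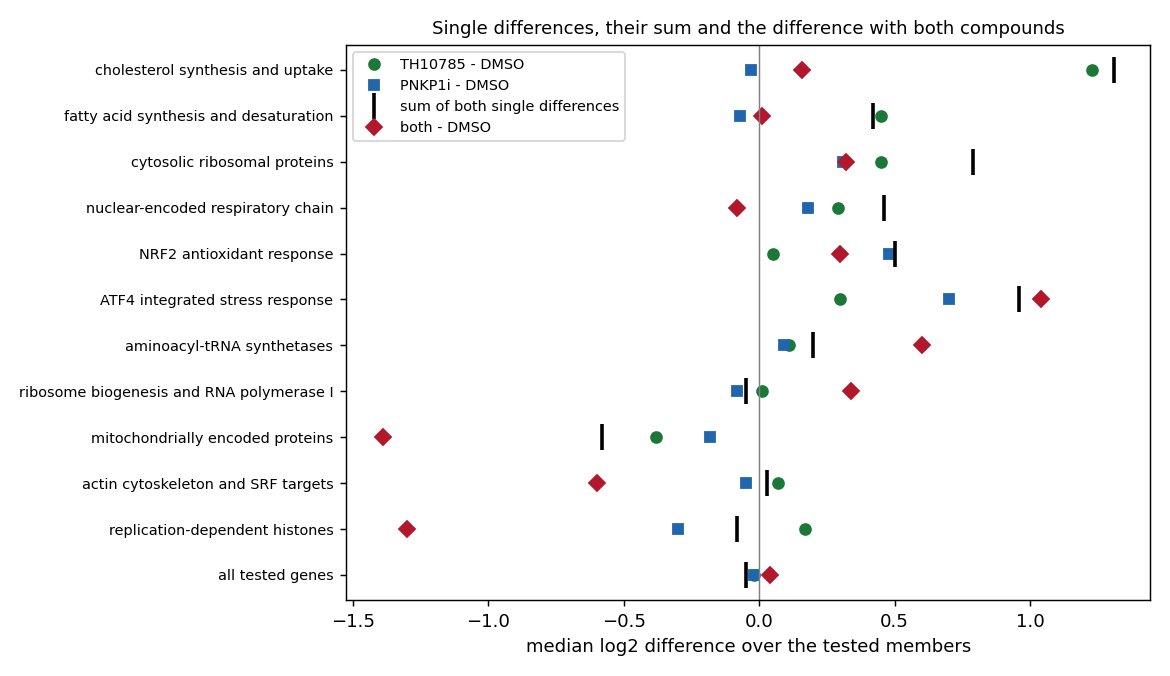
Median log2 difference from DMSO over the tested members of 11 gene lists and of all tested genes, with TH10785 (circles), PNKP1i (squares) and both compounds (diamonds), and the sum of the single differences (vertical bars). The diamond for cholesterol synthesis lies far to the left of its bar, at 0.16 against 1.31, while that of the ATF4 list lies next to it, at 1.04 against 0.96.

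Genes of the amino acid stress programme had a median interaction near 0, with more positive than negative calls. ATF4 is the factor made when the integrated stress response slows translation, and it drives amino acid import, synthesis and tRNA charging. The 40 tested genes of its list stood at a median of 0.30 with TH10785, 0.70 with PNKP1i and 1.04 with both, where the sum was 0.96, and the median interaction was 0.01 with 10 positive and 3 negative. With the GC offsets 8 were positive and 2 negative (median 0.17), and without the third TH10785 library 9 and 2 (median 0.12). Among the 10 were transcription factors and regulators. CEBPG, a partner of ATF4, measured 32.7, 30.5 and 33.7 CPM with DMSO, 39.2, 35.5 and 27.4 with TH10785, 36.4, 37.1 and 38.9 with PNKP1i alone, and 105, 86.1 and 90.2 with both (1.25, SE 0.19, adjusted p = 0.00245). ALDH1L2, a mitochondrial folate enzyme, rose with both to 42.1, 24.8 and 37.0 CPM against 3.61 to 11.8 elsewhere (1.84, SE 0.34, adjusted p = 0.00538). DDIT3 (1.35), TRIB3 (1.11) and GDF15 (1.09) were also positive and kept their calls with the offsets. SLC7A11, the cystine importer (1.53, adjusted p = 0.00561), lost its call with them (0.47, adjusted p = 0.134).

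PHGDH, the first enzyme of serine synthesis, went the other way. It was at 474, 534 and 454 CPM with DMSO, 433, 451 and 621 with TH10785, 915, 835 and 965 with PNKP1i alone, and 481, 620 and 544 with both, so the rise with PNKP1i was absent with the pair (-0.76, SE 0.21, adjusted p = 0.0136). Of 20 tested aminoacyl-tRNA synthetases, which load tRNAs with amino acids, 6 were positive and 2 negative (median 0.23), 4 and 1 with the offsets (median 0.05) and 5 and 2 without the third TH10785 library. EPRS1 measured 207, 148 and 192 CPM with both against 39.9 to 82.1 in the other 9 (1.64, SE 0.28, adjusted p = 0.00409), NARS1 148, 129 and 145 against 36.0 to 68.6 (1.24), and LARS1 148, 122 and 148 against 44.7 to 81.9 (1.17). QARS1 was negative (-0.80, adjusted p = 0.00761), with 251 to 286 CPM against 340 to 476.

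Ribosome assembly and ribosome components parted. Of 37 tested genes of ribosome biogenesis and RNA polymerase I 17 were positive and 4 negative (median 0.41), with 17 and 3 without the third TH10785 library and 13 and 3 with the GC offsets. DDX21, a nucleolar helicase, measured 71.7, 71.9 and 78.6 CPM with DMSO, 86.4, 82.2 and 39.4 with TH10785, 57.3, 62.7 and 53.7 with PNKP1i alone, and 248, 146 and 191 with both (1.85, SE 0.32, adjusted p = 0.00424). The libraries with both compounds lay above all others, among which the groups overlapped, and the third TH10785 library was the lowest of all. GNL3, the nucleolar GTPase nucleostemin, was at 74.3 to 83.1 CPM with both against 22.2 to 38.6 (1.46, SE 0.25, adjusted p = 0.00409), WDR43 at 72.7 to 96.2 against 18.5 to 43.5 (1.60) and GNL2 at 50.1 to 54.7 against 20.6 to 33.2 (1.21). The 4 negative genes were NOP10 (-0.76), UBTF (-0.67), NHP2 (-0.55) and POLR1D (-0.48).

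Of 76 tested cytosolic ribosomal protein genes 0 were positive and 21 negative, 19 with the offsets and 12 without the third TH10785 library. Their list stood at 0.45 with TH10785, 0.31 with PNKP1i and 0.32 with both, below the sum of 0.79. Within groups the spread was wide, from -0.23 to 0.23 over the DMSO libraries. RPLP0, a protein of the ribosomal stalk, measured 2990, 2910 and 1970 CPM with DMSO, 3280, 3550 and 4970 with TH10785, 4310, 4070 and 4490 with PNKP1i alone, and 3290, 3790 and 3040 with both, so that the groups overlapped (-0.93, SE 0.26, adjusted p = 0.0144). FAU (-0.87, adjusted p = 0.0103) had a like value, and ribosomal protein genes have many processed copies among which reads can be split.

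Many respiratory chain genes of the mitochondrial and of the nuclear genome were below the sum. Of the 13 proteins encoded by the mitochondrial genome 7 were negative and 0 positive (median -0.71), 10 and 0 with the GC offsets (median -1.12), 6 and 0 without the third TH10785 library. All 13 had the 3 libraries with both compounds below the other 9. MT-CO1, a catalytic subunit of cytochrome oxidase, measured 10300, 12100 and 16800 CPM with DMSO, 11000, 11100 and 12300 with TH10785, 16400, 13600 and 12800 with PNKP1i alone, and 3380, 5120 and 6090 with both (-1.37, SE 0.30, adjusted p = 0.00656). MT-CYB, of complex III, was at 573, 868 and 1000 CPM with both against 1880 to 3580 (-1.16, SE 0.27, adjusted p = 0.00811), and MT-ATP6, of the ATP synthase, at 1270, 1580 and 2050 against 3450 to 6510 (-1.01). The mitochondrial share of all counts was 2.51% to 3.19% with both and 3.88% to 6.80% in the other libraries. Of 48 tested nuclear-encoded respiratory genes 23 were negative and 0 positive (median -0.59), 25 with the offsets and 16 without the third TH10785 library. SDHA, of complex II, was at 104, 131 and 123 CPM with both against 199 to 273 (-0.78, SE 0.17, adjusted p = 0.00656), UQCRC1, of complex III, at 255 to 297 against 367 to 593 (-1.01), and NDUFS7, of complex I, overlapped DMSO (-1.05).

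Histone genes gave the lowest list median without offsets, and the third lowest with them. The list stood at a median of -1.94, -0.79 and -0.91 against the DMSO mean in the libraries with both compounds, the first far below its partners. Of 23 tested replication-dependent histone genes, transcribed when DNA is copied and mostly without poly(A) tails, 13 were negative and 0 positive (median -1.30), 13 and 0 without the third TH10785 library and 11 and 0 with the GC offsets (median -1.04). H2BC12 measured 473, 509 and 513 CPM with DMSO, 473, 512 and 567 with TH10785, 426, 368 and 428 with PNKP1i alone, and 123, 196 and 158 with both (-1.41, SE 0.21, adjusted p = 0.00213). H2BC21 was at 26.3, 37.9 and 41.5 CPM with both against 82.5 to 125 (-1.42, SE 0.20, adjusted p = 0.00167), H2AC6 at 39.4, 79.0 and 59.9 against 127 to 204 (-1.59) and H2BC11 at 12.6, 28.8 and 18.5 against 52.4 to 107 (-1.91). None of these 4 overlapped the other groups, and the first library with both compounds was the lowest in each. Histone genes are near-identical copies, so reads may be split among them. The H2BC12 promoter is shown because its window held 6 CCAAT boxes, in capitals on either strand, the most of the 4 windows printed. A window picked for its motif need not be typical of the histone windows.
H2BC12, chr6:27146859-27147108, minus strand: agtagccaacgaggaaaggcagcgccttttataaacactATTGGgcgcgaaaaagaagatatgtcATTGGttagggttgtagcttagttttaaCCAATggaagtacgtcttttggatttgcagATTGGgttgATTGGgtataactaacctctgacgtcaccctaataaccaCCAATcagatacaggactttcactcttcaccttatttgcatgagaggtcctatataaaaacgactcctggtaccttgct
A CCAAT box stood in 18 of 21 histone windows (85.7%) and the sterol element in 0, against 34.2% and 2.84% of the windows of tested genes.

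Cell cycle genes split. Of 43 tested genes of S-phase entry and DNA replication 16 were negative and 6 positive (median -0.34), 17 and 1 with the GC offsets and 16 and 4 without the third TH10785 library. TK1, thymidine kinase, was at 221, 391 and 342 CPM with both compounds against 605 to 910 (-1.39, SE 0.27, adjusted p = 0.00561), MCM2, of the replicative helicase, at 157, 201 and 179 against 245 to 360 (-0.96), and POLD1, the catalytic subunit of polymerase delta, at 151 to 186 against 257 to 364 (-0.90). RFC1, a clamp loader subunit, was positive (1.28) and was the only one of the 6 that kept its call with the offsets. Mitotic genes had a median of 0.43 with 12 positive and 11 negative of 40, and without the third TH10785 library of 0.28 with 11 and 10. With the offsets the median was -0.07, with 2 positive and 13 negative. BIRC5, the survivin gene (-1.08, adjusted p = 0.00561), CCNB1, cyclin B (-0.95), CDC20 (-1.02) and PLK1 (-0.92) were negative in both fits. CCNB1 measured 192, 279 and 239 CPM with both against 346 to 462.

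Counts for DNA repair genes changed with the offsets too. Of 43 tested genes of double-strand break repair and checkpoints 19 were positive and 5 negative with a median of 0.59. With the offsets 12 were positive and 6 negative and the median was 0.05, and without the third TH10785 library 16 were positive and 5 negative (median 0.41). ATR, a checkpoint kinase, measured 4.85, 4.58 and 4.44 CPM with DMSO, 3.68, 3.31 and 1.78 with TH10785, 4.4, 3.07 and 3.31 with PNKP1i alone, and 10.7, 6.88 and 13.8 with both (2.21, SE 0.40, adjusted p = 0.00483, 1.35 with the offsets). MRE11, a nuclease at breaks (1.74, adjusted p = 0.00538), RBBP8, which starts end resection (1.64), and WRN, a helicase (1.83), were positive in both fits. ATM (1.70) and BRCA1 (1.40) were so too. XRCC6, the Ku70 end-binding protein, was negative (-0.73).

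Base excision repair, the pathway of OGG1, had fewer calls with the offsets than without them. Of 30 tested genes of single-strand break and base excision repair 9 were negative and 4 positive (median -0.21), 4 and 0 with the GC offsets and 9 and 3 without the third TH10785 library. Without offsets 30% were negative and 13.3% positive, against 14.1% and 16.5% of all tested genes. With the offsets 11.3% of all tested genes were negative and 7.59% positive. OGG1 (chromosome 3, 9749944 to 9788219, plus strand, GRCh38) measured 54.8, 54.2 and 46.6 CPM with DMSO, 45.7, 48.6 and 61.5 with TH10785, 55.9, 54.6 and 58.2 with PNKP1i alone, and 33.1, 40.9 and 36.7 with both. The libraries with both compounds were below all others (interaction -0.61, SE 0.19, adjusted p = 0.0213), and the call was lost in 4 of 24 alternative settings, among them without the third DMSO (-0.54) and without the third PNKP1i library (-0.59). LIG1, a DNA ligase that seals the gap, was at 97.2, 132 and 122 CPM with both against 173 to 233 (-0.88, SE 0.19, adjusted p = 0.00625). APEX2 (-0.65), an endonuclease at abasic sites, was negative in both fits and FEN1 (-0.59), the flap nuclease, only without the offsets.

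Actin and contractile genes were negative in 16 of 28 and positive in 0 (median -0.65), 12 and 0 either with the GC offsets or without the third TH10785 library. ACTG1, a cytoskeletal actin, measured 4030, 4710 and 4660 CPM with DMSO, 3840, 4150 and 5660 with TH10785, 4840, 3930 and 4710 with PNKP1i alone, and 1590, 2270 and 2090 with both (-1.21, SE 0.24, adjusted p = 0.00561). MYL9, a myosin light chain, was at 70.0, 139 and 130 CPM with both against 282 to 460 (-1.37), and TAGLN2 at 678 to 955 against 1450 to 2420 (-1.15). In none of the 3 did the libraries with both compounds overlap the others, and neither compound alone moved them past the test.

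Matrix genes were mixed. In the collagen and matrix list 9 of 30 were negative and 4 positive (median -0.13), 8 and 4 either with the GC offsets or without the third TH10785 library. COL1A1, the main collagen of bone, was at 573, 636 and 793 CPM with both against 1290 to 1800 (-0.95, SE 0.20, adjusted p = 0.00632), LOXL2, which crosslinks collagen, at 154 to 174 against 241 to 307 (-0.80), and LAMB2 at 82.8 to 111 against 132 to 190 (-0.84). Its relative LAMB1 went up, to 257, 148 and 195 CPM against 78.7 to 137 (1.22, SE 0.25, adjusted p = 0.00561), so the laminin beta chains took opposite sides. Among proteases and inhibitors 7 of 25 were negative and 5 positive, 5 and 1 with the offsets and 7 and 4 without the third TH10785 library. MMP24 was at 31.0, 45.0 and 43.6 CPM against 105 to 182 (-1.63, SE 0.25, adjusted p = 0.0031), and MMP14 (-0.89) and PLAT, tissue plasminogen activator (-1.03), were negative too.

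Glycolysis and hypoxia genes were negative in 16 of 32 and positive in 4 (median -0.59), 14 and 2 with the GC offsets and 15 and 4 without the third TH10785 library. ALDOC, an aldolase, was high with TH10785 alone, with 4.61, 4.15 and 3.16 CPM with DMSO, 12, 13.2 and 17.8 with TH10785, 3.16, 2.42 and 4.05 with PNKP1i alone, and 2.52, 2.47 and 3.21 with both (-2.08, SE 0.34, adjusted p = 0.0035). PGAM1, phosphoglycerate mutase, was at 191 to 272 CPM with both against 364 to 599 (-1.25), and PGK1, phosphoglycerate kinase, at 493 to 615 against 618 to 1120 (-1.06). HK2, the inducible hexokinase, was positive at 110, 57.8 and 64.5 CPM against 27.5 to 36.6 (1.40, SE 0.27, adjusted p = 0.00561), as were EPAS1 (1.5) and HIF1A (1.34), which lost its call with the offsets.

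Targets of NRF2, the antioxidant factor, took both sides. Of 36 tested 15 were negative and 7 positive (median -0.46), 14 and 4 with the GC offsets and 14 and 7 without the third TH10785 library. The list stood at a median of 0.05 with TH10785, 0.48 with PNKP1i and 0.30 with both. TXNRD1, thioredoxin reductase, measured 286, 265 and 293 CPM with DMSO, 315, 326 and 214 with TH10785, 409, 380 and 397 with PNKP1i alone, and 875, 810 and 754 with both (1.02, SE 0.20, adjusted p = 0.00561), and GCLC, the catalytic subunit of glutathione synthesis, was at 80.4 to 94.7 CPM with both against 24.7 to 53.1 (1.05). The aldo-keto reductases AKR1C1 (-1.45), AKR1C2 (-1.82) and AKR1C3 (-1.23), which are near-identical copies, were negative. TKT, transketolase, was at 358, 460 and 412 CPM with both against 618 to 973 (-1.12, SE 0.21, adjusted p = 0.00561).

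Counts in the signalling lists were small without offsets. With the GC offsets positive calls rose to 8 of 27 for NF-kB and to 6 of 23 each for immediate early and ERK feedback genes. They fell to 1 of 23 for YAP and TEAD, where 7.59% of all tested genes were positive. Without offsets the positive shares were 11.1% for NF-kB, 8.7% for immediate early genes and 17.4% for ERK feedback and for YAP and TEAD. The negative shares without offsets were 7.41%, 4.35%, 0% and 21.7%. Over all tested genes 16.5% were positive and 14.1% negative, and with the offsets 7.59% and 11.3%. In the NF-kB and cytokine list 3 of 27 were positive and 2 negative, 8 and 1 with the GC offsets and 3 and 1 without the third TH10785 library. NFKBIZ, an inducible NF-kB co-regulator, was at 40.7, 21.6 and 29.3 CPM with both against 6.29 to 9.13 (1.84, SE 0.30, adjusted p = 0.0035), and BIRC2, which restrains cell death signals, at 27.4, 17.0 and 25 against 3.94 to 9.57 (1.76). CCL2, a monocyte chemokine, was at 0.968, 1.55 and 1.54 CPM against 3.55 to 7.25 (-1.70, SE 0.36, adjusted p = 0.00633). Among 23 immediate early genes 2 were positive and 1 negative, 6 and 0 with the offsets and 1 and 0 without the third TH10785 library. MYC was positive (1.01, adjusted p = 0.0144), at 397, 213 and 221 CPM against 108 to 148. The other, FOSL1 (0.87, adjusted p = 0.0357), lost its call in 14 of 24 alternative settings. Among these were both limma fits and the fits without the second or the third DMSO library, any 1 of the PNKP1i or TH10785 libraries, or the first library with both compounds (0.52). Of 23 ERK feedback genes 4 were positive and 0 negative (median 0.47), 6 and 1 with the offsets and 3 and 0 without the third TH10785 library. ERRFI1, an inhibitor of the EGF receptor (1.08, adjusted p = 0.0116), lost its call with the offsets (0.70, adjusted p = 0.0839). Among 23 YAP and TEAD genes 4 were positive and 5 negative, 1 and 3 with the offsets and 4 and 3 without the third TH10785 library, with CCN2, a secreted matrix regulator, at 849, 499 and 538 CPM against 311 to 439 (0.98) and TEAD2 at 29 to 50.2 against 67.5 to 106 (-1.34).

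Of 16 circadian clock genes 5 were positive and 4 negative (median -0.03), 1 and 4 with the offsets and 3 and 4 without the third TH10785 library. TEF, a PAR bZIP factor, measured 118, 131 and 111 CPM with DMSO, 108, 107 and 149 with TH10785, 130, 131 and 123 with PNKP1i alone, and 37.9, 51.2 and 48.8 with both (-1.49, SE 0.20, adjusted p = 0.000958). Its relative DBP was at 12, 23.9 and 23.1 CPM against 66.3 to 99.9 (-1.74, SE 0.26, adjusted p = 0.00245), and the repressors PER1 and CRY2 were at -0.97 and -0.94. These were the 4 negative genes, and all held with the offsets. Of the 5 positive ones, NFIL3, a repressor that competes with DBP (1.25), was the only one that did. In the WNT feedback list 4 of 13 were negative and 1 positive, 3 and 1 with the offsets and 4 and 1 without the third TH10785 library. RNF43 had an interaction of -1.93 (adjusted p = 0.0254), which lost its call without the first or the third DMSO, the second PNKP1i, or the first or the second library with both compounds (-1.86 to -1.36). DKK3, a secreted Dickkopf family protein, was at 138 to 180 CPM against 245 to 331 (-0.94, adjusted p = 0.0048), and LEF1 was positive (0.91), but without a call when the third DMSO, the first or the third PNKP1i or the first library with both compounds was left out (0.73 to 0.85).

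Counts for protein quality control and splicing genes changed with the offsets. Of 22 heat shock genes 8 were positive and 4 negative, 6 and 1 with the offsets and 8 and 3 without the third TH10785 library. HSP90AA1, the inducible HSP90, was at 678, 663 and 809 CPM with both against 143 to 395 (1.49, SE 0.35, adjusted p = 0.00792), HSPH1 at 92.8 to 118 against 32.2 to 79.9 (1.40) and DNAJB4 at 10.0 to 14 against 2.88 to 6.37 (1.79). Of 25 endoplasmic reticulum genes 7 were positive and 4 negative, 2 and 3 with the offsets and 7 and 4 without the third TH10785 library. The calnexin gene CANX (0.90) and its relative CALR (-0.85, adjusted p = 0.00602) took opposite sides, CANX without a call once offsets were used. Proteasome genes were negative in 13 and positive in 6 of 33, 14 and 1 with the offsets and 10 and 5 without the third TH10785 library. The SR and hnRNP splicing factors went from 11 positive and 4 negative of 32 (median 0.29) to 2 and 11 with the offsets (median -0.09) and were 11 and 3 without the third TH10785 library, so no direction holds for that list. HNRNPL was negative in both fits (-0.74, adjusted p = 0.00693). Of 19 small nucleolar RNA host genes 5 were positive and 0 negative, 4 and 1 with the offsets and 4 and 0 without the third TH10785 library, with GAS5 at 168 to 194 CPM against 40 to 84.3 (0.82, adjusted p = 0.0171), a call that ended with the offsets or without the first PNKP1i library (0.74).

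Cell fate genes showed no common direction. Of 29 tested p53 targets 7 were positive and 8 negative (24.1% and 27.6%, against 16.5% and 14.1% of all tested genes), 8 and 6 with the offsets and 7 and 8 without the third TH10785 library. GADD45A, a stress sensor, was at 164, 128 and 123 CPM with both against 57.4 to 82.5 (0.85, SE 0.18, adjusted p = 0.00607), and its relative GADD45B at 24.6, 36.3 and 31.0 against 40.3 to 72.5 (-1.07, SE 0.21, adjusted p = 0.00561). BTG2, an antiproliferative factor (-0.78), and DDB2, a damage sensor of nucleotide excision repair (-0.87), were negative. Of 16 BCL2 family genes 2 were positive and 4 negative, 3 and 3 with the offsets and 2 and 2 without the third TH10785 library. MCL1, which protects from cell death, was at 301, 214 and 238 CPM against 103 to 175 (1.14, SE 0.22, adjusted p = 0.00561), and BAD, which promotes it, had an interaction of -1.32 (adjusted p = 0.0066) with the third TH10785 library at 71.4 CPM, the highest of all. In 24 interferon and DNA sensing genes 2 were positive and 4 negative (0 and 1 with the offsets, 2 and 3 without the third TH10785 library). In 35 lysosome and autophagy genes the counts were 2 and 3 (0 and 3, 1 and 3 in those fits), in 11 xenobiotic response genes 1 and 1 (2 and 2, 1 and 2), and in 6 metallothionein and zinc genes 2 and 0 (0 and 0, 1 and 0).

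**Figure D4:**
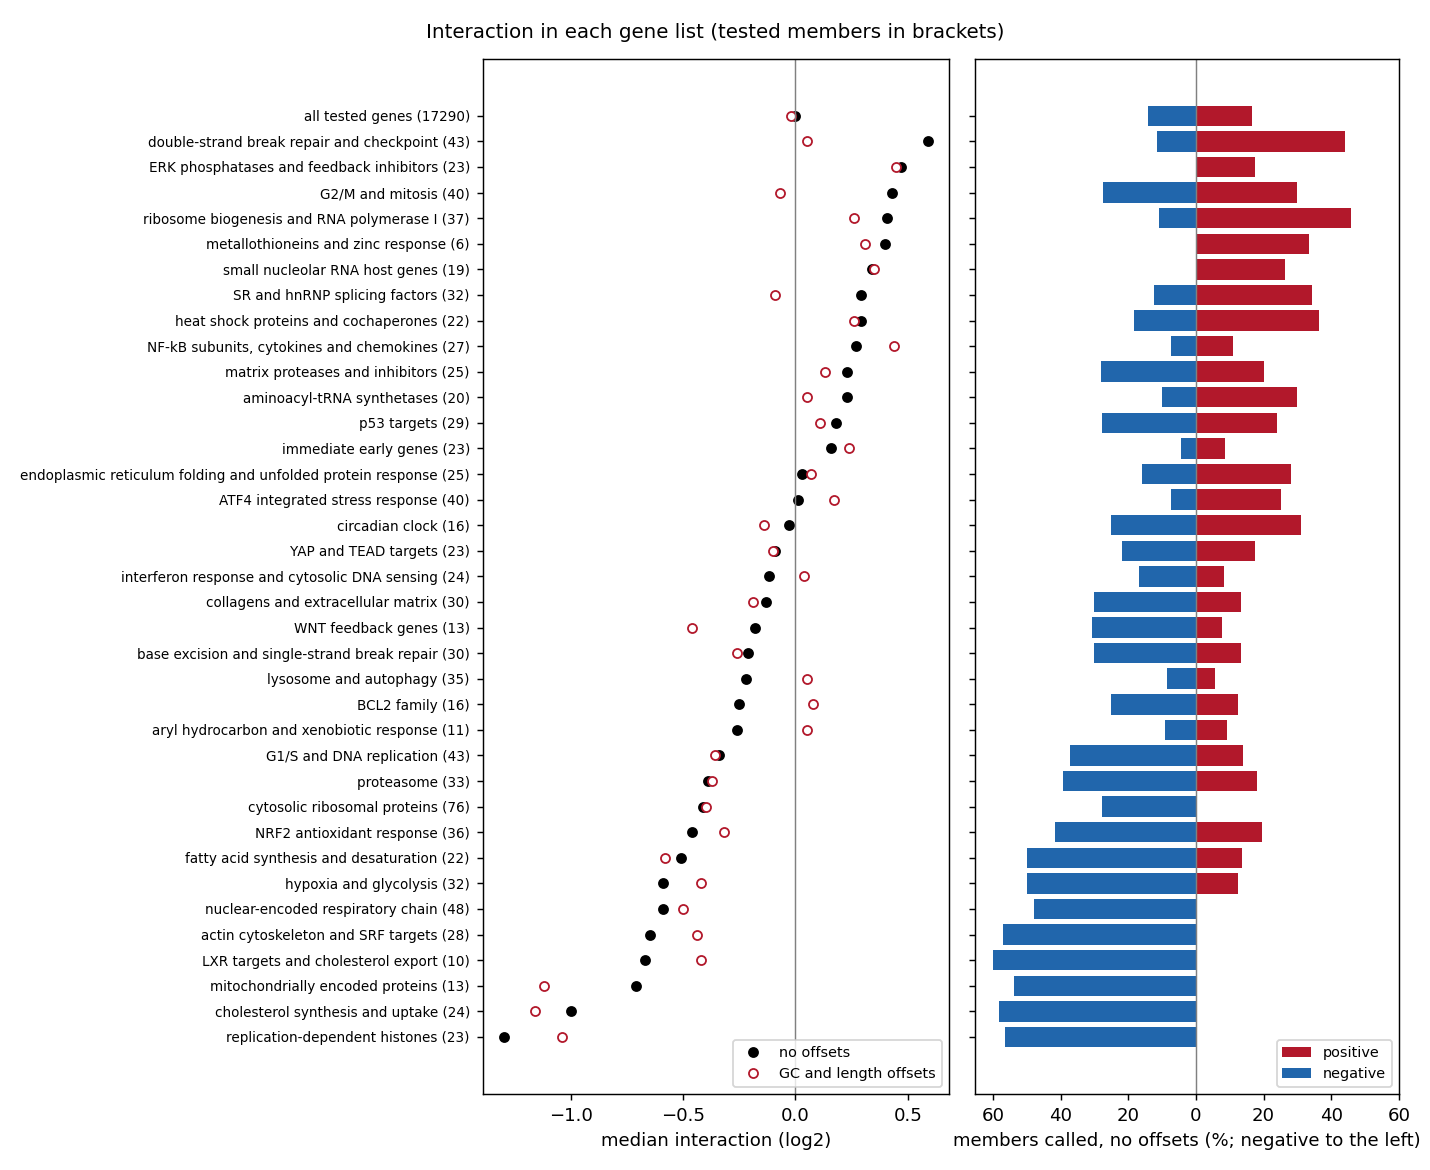
Left, median interaction (log2) of the tested members of each gene list, without offsets (black) and with the GC offsets (open red); right, percent of members called positive (red) or negative (blue, to the left) without offsets. Histone, cholesterol and mitochondrially encoded genes lie lowest in both fits, at -1.30, -1.0 and -0.71 without offsets, while the medians of the splicing, mitotic and double-strand break lists move to near 0.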

How the data were processed

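The authors deposited a table of raw read counts for 58735 genes and a table of normalized signal values, each the count divided by 1 factor per library. Per the submitters' processing notes, the tools were DESeq2 1.30.1, HTSeq 0.6.1 and HISAT2 2.0.5 on GRCh38 (hg38). Annotation and strand setting are not given in the sources used here. All identifiers match GENCODE 29 (GRCh38), used for names, GC content and length. The labels write TH10785 and the series' design text TH10587, and the labels' name is used.

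Counts were tested with edgeR 4.0.16 (R 4.3.3): filterByExpr (minimum count 10, total 15), TMM scaling, a mean for each of the 4 groups, robust quasi-likelihood F tests (two-sided) and Benjamini-Hochberg adjustment over 17290 genes, called at 0.05. The biological coefficient of variation was 15.4%. Levels are TMM-scaled CPM, and 3 counts are worth 0.136 to 0.184 CPM. GC offsets came from splines with 5 degrees of freedom, for 17282 genes with known GC content and length. On data simulated for the interaction over 17290 genes, 2.99% of genes with a 1.5-fold, 25.4% with a 2-fold and 72.7% with a 4-fold interaction were recovered. Only 67, 67 and 66 genes were changed in that simulation, far fewer than the 5289 called in the data. The adjustment is stricter with so few changed genes, so these shares do not measure the recovery in the data.

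The gene lists and the genes named were chosen with earlier results of these data known, and 1083 of 1086 list entries matched a gene. Named by rule were OGG1, the 12 largest positive and 12 largest negative interactions (called with and without GC offsets, mean log2 CPM of at least 1), and the members of smallest p, at most 4, of each list with at least 3 called. Other list members were chosen after their values were seen. A few genes under this naming rule are not reported here. Promoter windows are from RefSeq (GRCh38.p14). Alternatives were upper-quartile or RLE scaling, limma 3.58.1 (voom, and trend on the deposited values as log2 of value plus 1), DESeq2 1.42.0, no filter or a stricter one, a test against a 1.2-fold interaction, a replicate block, GC offsets, and leaving out each library.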

Additional observations from a re-analysis of the deposited data

Results flagged for a closer look

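Each interaction below is a difference between the effect of a compound in cells without and with the other compound, and the term itself passed the test, which is why it is listed. It did so in 5289 genes, positive in 2855 and negative in 2434.

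Among the ranked positive genes the values were 3.31 for LCN2, 3.02 for TXNIP, 2.92 for PUS7L, 2.79 for MXD1, 2.73 for MIR222HG, 2.69 for TMEM154, 2.61 for ARHGAP18, 2.61 for ITGA2, 2.54 for PTX3, 2.52 for ARAP2, 2.51 for WDR35 and 2.48 for LAMP3. Among the ranked negative genes they were -3.08 for KRT14, -2.84 for ALPP, -2.53 for CXCL14, -2.46 for CLIC3, -2.36 for KRT5, -2.36 for ACAN, -2.32 for ANXA8L1, -2.30 for LINC02474, -2.30 for PEG13, -2.26 for LGI3, -2.24 for TGM1 and -2.20 for H2AC20.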

How the results depend on the processing

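The 5289 calls (2855 positive, 2434 negative) became 3265 with the GC offsets (1313 positive), 2699 with GC offsets and replicate block (1076 positive) and 1846 (744 positive, 1102 negative) with the GC offsets and the third TH10785 library left out, an alternative chosen after seeing the data. Tested against a 1.2-fold interaction, 1548 were negative. Leaving out each library in turn gave 3492 to 6140 calls, 1844 to 3200 positive and 1582 to 2940 negative. Fewer libraries lower the power of a fit, and the other causes were not tested. RLE and upper-quartile scaling, DESeq2, both limma fits and both filters gave 5244 to 5793 calls. They moved the median interaction of all genes by at most 0.09. Same-numbered libraries of different groups correlated at -0.255 to 0.125 in 18 pairs, 1 of them over 0.1, and 1 library correlated best with its own number, so the numbers were not taken as pairs. With the number as a replicate block 4497 genes were called, 2444 positive and 2053 negative. Under the block the LXR list went from 6 to 3 negative genes, the mitotic list from 12 to 4 positive and the small nucleolar RNA host genes from 5 to 2 positive. Of 162 named genes 104 kept their call in all 24 settings, 37 lost it in 1 to 3 and 21 in 4 or more, and 0 reversed. With the GC offsets 31 of the 162 lost it. The ranked genes were picked among those that kept their call with these offsets, so their part in these counts was fixed. The named list members were those of smallest p in their lists. Of all called genes 42.6% kept their call with the GC offsets, so the named genes do not measure how well calls hold. On the CPM scale the values of PUS7L and ABCG1 moved, to 4.34 and -0.05. Calls under 2-fold are limited by 3 libraries a group.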

Other observations

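The mitochondrial ribosomal RNAs, singled out after their values were seen, did not go with the mitochondrial messages. MT-RNR1 measured 590, 747 and 857 CPM with DMSO, 705, 673 and 696 with TH10785, 1040, 1040 and 945 with PNKP1i alone, and 1460, 980 and 1090 with both compounds. Its interaction was 0.30 (SE 0.22, adjusted p = 0.311), and it rose with both against DMSO (log2 0.69, SE 0.16, adjusted p = 0.00264). MT-RNR2 measured 2690, 3450 and 4200 CPM with DMSO, 2620, 2660 and 2680 with TH10785, 4160, 4970 and 4570 with PNKP1i alone, and 5660, 4210 and 4970 with both. The libraries with PNKP1i alone thus overlapped those with both compounds. The interaction of MT-RNR2 was 0.49 (SE 0.23, adjusted p = 0.114) and its rise with both against DMSO 0.52 (SE 0.16, adjusted p = 0.018). Among the mitochondrial transfer RNAs MT-TP had a negative interaction (-1.08, SE 0.24, adjusted p = 0.00663), at 26.4, 40.1 and 38.7 CPM with both against 41.8 to 81.0 in the other 9 libraries. MT-TG was also called negative (-1.76, SE 0.61, adjusted p = 0.0367), at low levels of 0.291 to 1.51 CPM. With the GC offsets MT-TL1, MT-TY, MT-TH, MT-TI and MT-TL2 were called negative as well. Transfer RNAs may be captured poorly in these libraries, which was not tested, so their values are given without a reading.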
